A study of Mus musculus with 12 samples.

Results

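The genes examined were 7 genes of alternative activation and tissue repair with at least 1 peak of N4-acetylcytidine (ac4C) RNA: Hmox1, Sirpa, Spp1, Cd36, Mmp12, Stat6 and Vegfa. They were chosen from the deposited peak lists as genes of this programme that had a peak, so the lists that hold them, their place in the transcript and the return of a region are described here without a test. They are 7 of 2062 genes that had a peak in at least 1 list, of which 1779 code for protein. The study pulled down ac4C RNA from mouse peritoneal macrophages incubated with interferon-γ (IFN-γ) for 0, 24 or 48 h, with 2 pull-down samples at each time and 2 samples of total RNA beside them; cells were kept in medium with fetal bovine serum. Every group, including 0 h, carries the same treatment label and differs in the hours alone; no strain, genotype or age is given in the labels, and no untreated group was taken at 24 or 48 h, so IFN-γ and hours in culture cannot be told apart. Each of the 6 peak lists belongs to a known hour and to 1 of its 2 samples, without saying which. Nothing in the labels names separate animals or cultures, so agreement between 2 lists may be technical.

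Macrophages exposed to IL-4 or IL-13 take on an alternatively activated state. The receptor signals through Janus kinases to STAT6, which enters the nucleus and switches on genes of lipid uptake, matrix turnover and repair. IFN-γ drives the opposed, classical state. The acetyl group of ac4C is placed on cytidine by NAT10, and the mark has been linked to the stability and translation of messenger RNA. Within the present set Stat6 encodes the transcription factor, Sirpa and Cd36 encode surface receptors, Hmox1 and Mmp12 encode enzymes, and Spp1 and Vegfa encode secreted factors.

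The lists held 611 to 1151 peaks, with the longest at 0 h. The authors' fold enrichment and p at each summit could be written as a whole number of pull-down fragments, scaled by 1 factor per list, against a background coverage. Each of the 39 summits in the 7 genes had exactly 1 such solution, and at 34 of them the background also came out as a whole number of fragments, within 0.001. Pull-down fragments below are the whole numbers before scaling, while the background is the coverage they meet after scaling. A pair of fragments over background therefore does not divide to the fold. As the factor differs by list, such pairs are not on the same scale in different lists. The background depth of a list ran from 44.5% to 100% of the deepest and was highest at 0 h. Of the marker genes looked up for the label, 3 of 9 for macrophages (Itgam, Lyz2 and Mrc1) and 1 of 6 for the resident peritoneal type (Cebpb) had a peak, while Adgre1, Csf1r and Cd68 had none. For mesothelial cells 1 of 5 had one (Wt1, in 48 h list 2), and no listed marker of B cells, T cells, neutrophils, mast cells, fibroblasts or eosinophils did. Peaks give no level, so these counts do not measure cell composition.

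Hmox1 was found in all 6 lists, Sirpa and Spp1 in 5, Stat6 in 4, Cd36 and Vegfa in 3 and Mmp12 in 1. That is 27 of 42 possible pairs of gene and list, or 64.3%, beside 32.9% over all protein-coding genes with a peak. In 5 or 6 lists were 3 of the 7 genes, beside 7.93% of the 1779 coding genes. Both 0 h lists held 4 of the 7 (Hmox1, Sirpa, Spp1 and Stat6), beside 20.9% of all such genes. Both 24 h lists held 3 (Hmox1, Spp1 and Stat6), beside 10.8%, and both 48 h lists held 4 (Hmox1, Sirpa, Cd36 and Vegfa), beside 10.3%. These shares stand beside the counts for scale, and nothing is read from them, because the genes were picked with their peaks known. Taken alone, 1 list of each time held 5 of the 7 genes and the other held 4. At 24 h these were list 1 and list 2, in that order. In these bulk samples a missing peak has no level, and fewer cells of a type cannot be told apart from less RNA per cell or from less of the mark.

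**Figure D1:**
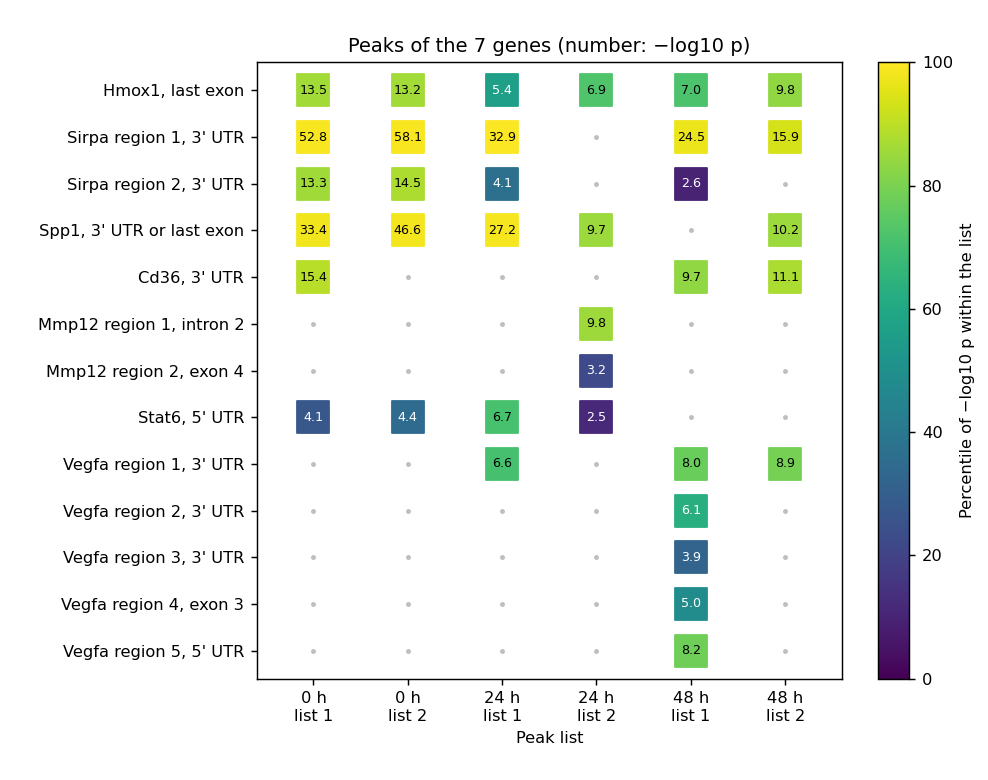
Each row is 1 region of a gene with the place of its centre, each column 1 peak list; a square marks a peak, its number is the authors' −log10 p and its colour the percentile of that value within the list, and a grey dot marks no peak. Hmox1 fills its whole row, Stat6 has no square in the 48 h lists, and 4 of the 5 Vegfa regions lie in 48 h list 1 alone.

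The 36 peaks of the 7 genes fell into 13 regions once peaks sharing at least 1 base were joined over the lists. Of the 13, 7 returned in 2 or more lists, beside 36.8% of all 2808 regions. In all, 4 regions were present at every one of the 3 times: that of Hmox1, both of Sirpa and that of Spp1. Of all 2808 regions 271 were, or 9.65%. The authors placed the centre of 21 peaks in a 3′ UTR, of 7 in the last exon, of 5 in a 5′ UTR, of 2 in another exon and of 1 in an intron. All 7 peaks centred in the last exon ended in the 3′ UTR. The places of all peaks are not given here, so these counts show no trait particular to the 7 genes. Each of the 36 peaks overlapped a single annotated gene. Their width was 208 to 475 bases with a median of 250, against a median of 260 over all peaks. No base sequence is given for these regions, since no genome of their build (GRCm39) was used here.

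Stat6 (ENSMUSG00000002147), the transcription factor that carries the IL-4 and IL-13 signal, was the only one of the 7 whose sole region lay at the start of the transcript. The region, on chromosome 10 at 127478890 to 127479128 (GRCm39), was centred in the 5′ UTR and ran into intron 1 in 4 lists. Starts of the 4 peaks lay within 7 bases of each other and ends within 9, and the summits lay 150 to 176 bases from the annotated 5′ end of the gene. The peaks stood low in both 0 h lists, at percentiles of −log10 p of 27.2 and 34.5, and in 24 h list 2, at 11.1. In 24 h list 1 the percentile was 70.8. In 0 h list 1 the summit had 59 pull-down fragments over a background of 11, a fold of 2.23 and a −log10 p of 4.09. In 0 h list 2 it had 42 over 7, a fold of 2.58 and a −log10 p of 4.35. The 24 h lists stood apart from each other. List 1 had 44 fragments over a background of 2, a fold of 4.65 and a −log10 p of 6.68. List 2 had 32 over 4, a fold of 2.31 and a −log10 p of 2.55, the lowest value among the strongest summits of all 36 peaks and close to a p of 0.005, near which every list ends. As a multiple of the lowest background of the list, the background at the summit was 13.5 and 9.38 in the 0 h lists. In the 24 h lists it was 3.32 and 6.06. Neither 48 h list had a peak at Stat6, and what lies under the threshold there is not given.

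The high fold of 24 h list 1 rested on a background of 2 fragments. The scaled ratio of pull-down to background was 6.48 there, with an exact 95% interval (conditional binomial, counting error only) of 1.69 to 55.2. In 24 h list 2 the ratio was 2.64 (0.935 to 10.3), and at 0 h 2.34 (1.22 to 4.95) and 2.81 (1.25 to 7.41), so all 4 intervals overlap. A q of 0.05 or less was reached in 24 h list 1 and in no other list. With every list shortened to its 611 strongest peaks (ties kept), Stat6 left both 0 h lists and kept both 24 h lists. Scaled down to the background depth of the shallowest list, its p in 24 h list 2 rose above 0.005 and 3 lists remained. The pattern of Stat6 over the lists thus moved with each of these choices.

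Sirpa (ENSMUSG00000037902) encodes SIRPα, the inhibitory receptor that reads CD47 on other cells and restrains phagocytosis. It had a pair of regions in its 3′ UTR on chromosome 2, 630 bases apart. The first, at 129472698 to 129473054, was present in 5 lists, every list but 24 h list 2, and its 5 summits lay within 6 bases of each other, 1290 to 1296 bases before the annotated 3′ end. It held the strongest peak of the set in each of those lists. At 0 h the summit had 470 pull-down fragments over 56 and 423 over 48, at folds of 3.62 and 4.06. In 24 h list 1 it had 377 over a background of 27.5, at a fold of 3.93. At 48 h it had 286 over 21 and 248 over 19, at folds of 3.86 and 3.27. The 0 h folds overlapped those of 24 h and of 48 h, and the 24 h fold lay just above both 48 h folds. The −log10 p was 52.8 and 58.1 in the 0 h lists, 32.9 in 24 h list 1, and 24.5 and 15.9 in the 48 h lists, while the peak stood at the 93.5th to 99.3rd percentile of its list throughout.

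The −log10 p of this region was lower in the later lists, whose background depth is also lower (44.5% to 73.7% in the 3 later lists with the peak, 91.4% and 100% in the 0 h lists). Pull-down depth did not run the same way and was highest in 24 h list 1. With fragments and background brought to the depth of the shallowest list, the −log10 p became 24.3 and 29.2 in the 0 h lists, 20.5 in 24 h list 1, and 19.6 and 15.9 in the 48 h lists. Matching narrowed the gap between 0 h and 48 h, and both 0 h values stayed above the other 3. The second region, at 129473684 to 129474088 and 226 to 347 bases before the 3′ end, was weaker. It appeared in both 0 h lists at folds of 1.98 and 2.06 and a −log10 p of 13.3 and 14.5. In 24 h list 1 its fold was 1.67 and its −log10 p 4.12, and in 48 h list 1 they were 1.67 and 2.56, with a q of 1 in both. It was missing from 24 h list 2 and 48 h list 2. At the matched depth the 48 h peak was lost as well. The near and the far region of the same transcript therefore differed in how many lists held them.

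Cd36 (ENSMUSG00000002944) encodes the scavenger receptor that takes up oxidised lipoproteins and fatty acids. Its single region lay in the 3′ UTR on the minus strand of chromosome 5, at 17987448 to 17987685, 871 to 914 bases before the 3′ end. It was found in 0 h list 1 and in both 48 h lists. The 0 h peak had 552 pull-down fragments over a background of 137, a fold of 1.75 and a −log10 p of 15.4. The 48 h peaks had 191 over 21 and 167 over 12.8, at folds of 2.59 and 3.21 and a −log10 p of 9.73 and 11.1. Background and pull-down coverage at the summit were both higher in the 0 h list. As a multiple of the lowest background of the list, a measure that takes out depth, the background was 168 in 0 h list 1 against 44.9 and 35.2 at 48 h. Whether that background stands for the level of the transcript is not known, since the sources used here do not name the control of a list. A peak in 1 of 2 lists at 0 h does not separate 0 h from the other times.

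**Figure D2:**
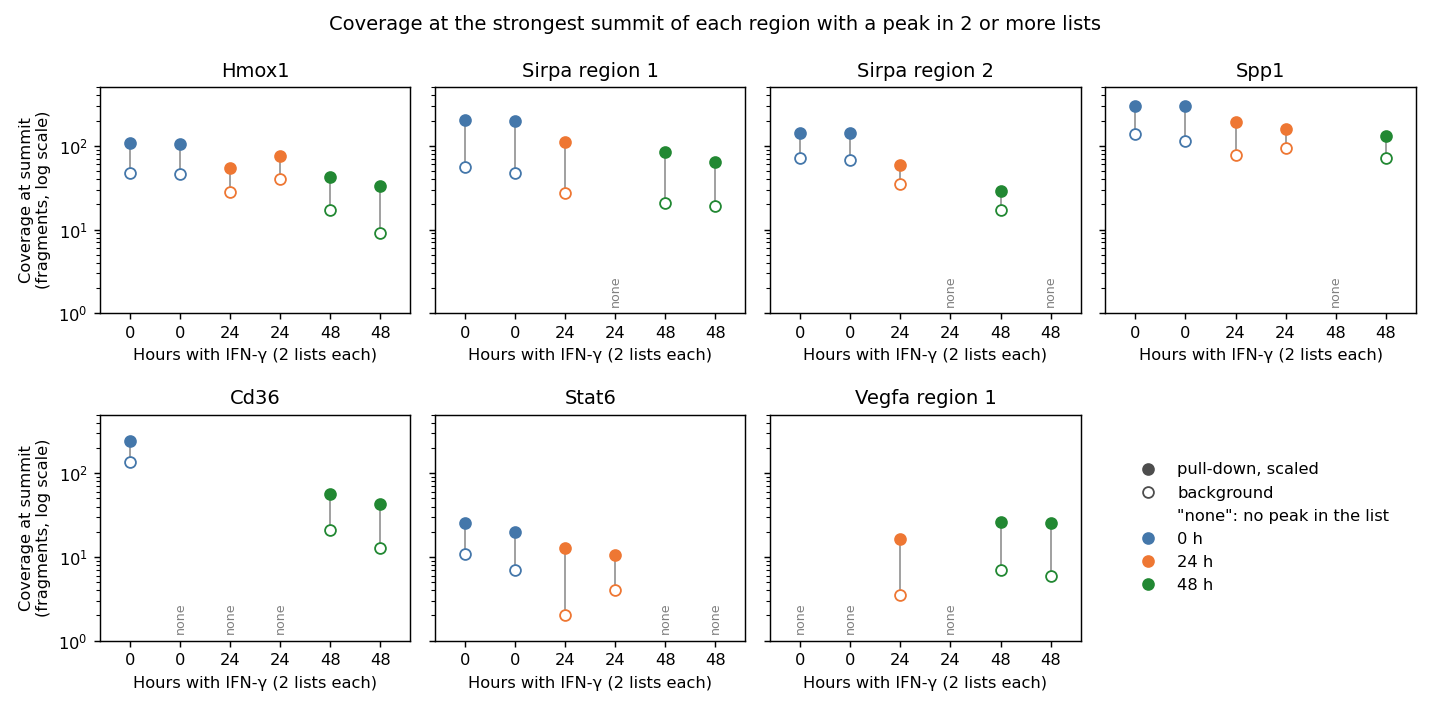
For each region found in 2 or more lists, the pull-down coverage at the strongest summit, scaled to the depth of the background (filled), and the background coverage (open) are plotted on a log scale in fragments, 1 position per list in the order list 1, list 2 at each time. For Cd36 both values stand far higher in 0 h list 1 (background 137) than at 48 h (21 and 12.8), while for Stat6 the background is 2 to 11 fragments throughout.

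Hmox1 (ENSMUSG00000005413) encodes haem oxygenase-1, the enzyme that opens haem into biliverdin, iron and carbon monoxide. Its region on chromosome 8, 75826599 to 75827074, ran from the last exon into the 3′ UTR in all 6 lists, and all 6 peaks shared 396 bases. Starts differed by at most 40 bases and ends by at most 39. At 0 h the strongest summit had 249 pull-down fragments over 48 and 223 over 46, with folds of 2.24 and 2.24. At 24 h it had 185 over 28 and 232 over 40, with folds of 1.91 and 1.89. At 48 h it had 146 over 17 and 128 over 9, with folds of 2.43 and 3.42. At the strongest summit the folds of the 3 times did not overlap, lowest at 24 h and highest at 48 h. The weaker summits of the split peaks had folds of 1.62 in 24 h list 1 and of 2.22 and 2.07 in the 48 h lists, the last pair below both 0 h folds. They are the caller's own values per list, and counting error alone is wider than the gaps. The exact 95% interval of the scaled ratio was 1.66 to 3.16 and 1.65 to 3.19 in the 0 h lists. It was 1.30 to 3.01 and 1.36 to 2.75 in the 24 h lists, and 1.52 to 4.44 and 1.88 to 8.25 in the 48 h lists, so all 6 overlap.

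The summits of Hmox1 did not sit at the same place in each list. At 0 h each list had 1 summit, 321 and 346 bases before the annotated 3′ end. In 24 h list 1 and in both 48 h lists the caller split the peak into 2 summits, 238 to 295 bases apart, 1 at 510 to 516 bases before the 3′ end and the other at 216 to 276. The 24 h list 2 had 1 summit, at 459 bases. The span of the peak was thus shared by all lists while its highest point was not. The −log10 p of the strongest summit was 13.5 and 13.2 in the 0 h lists, 5.38 and 6.87 in the 24 h lists, and 7.05 and 9.81 in the 48 h lists. At the matched depth these became 6.67 and 6.81, 3.47 and 4.31, and 5.88 and 9.81. Both 24 h values stayed the lowest, and 48 h list 2, the shallowest list, was then the highest.

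**Figure D3:**
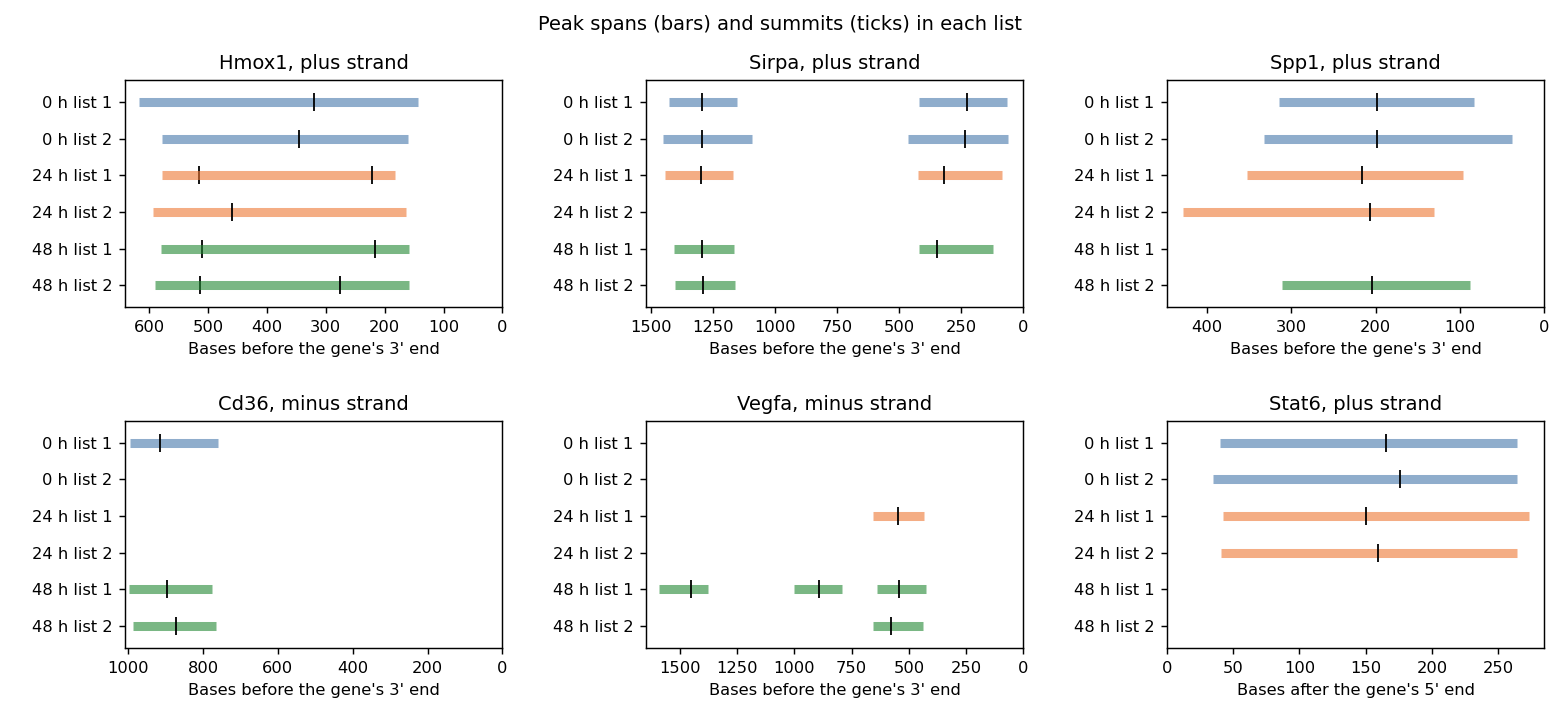
Bars are peak spans and ticks are summits in each list, drawn as bases before the annotated 3′ end of the gene, or after its 5′ end for Stat6. The summits of the first Sirpa region, 1290 to 1296 bases from the end, line up to within 6 bases, the Hmox1 peaks share their span while 3 later lists carry 2 summits, and the exon 3 and 5′ UTR peaks of Vegfa lie outside the plotted range.

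Mmp12 (ENSMUSG00000049723) encodes macrophage elastase, a metalloproteinase that cleaves elastin and other matrix proteins. It had peaks in 24 h list 2 alone, the list that lacked Sirpa, Cd36 and Vegfa. The stronger peak, on chromosome 9 at 7349755 to 7350022, began in exon 2, was centred in intron 2 and ended in exon 3. It had 115 pull-down fragments over 11, a fold of 3.24 and a −log10 p of 9.78, at the 85.3rd percentile of the list. The weaker peak, at 7352885 to 7353108, was centred in exon 4 and reached introns 3 and 4; it had 75 fragments over 12, a fold of 1.98 and a q of 1. Both peaks cross exon borders, and the aligner named in the submitters' processing notes, BWA, is not a spliced aligner. Its part in these peaks was not tested.

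Spp1 (ENSMUSG00000029304) encodes osteopontin, a secreted phosphoprotein of the matrix that macrophages release in large amounts during repair and inflammation. Its region lay on chromosome 5 at 104588481 to 104588871, present in every list but 48 h list 1. The 5 summits lay within 18 bases, 198 to 216 bases before the 3′ end, and in all 5 lists the peak ended in the 3′ UTR. The centre lay in the 3′ UTR in 4 lists and in the last exon in 24 h list 2, where the peak began furthest upstream. Spp1 had the deepest coverage of the set, 488 to 689 pull-down fragments at the summit. The summit had 689 fragments over 137 and 636 over 113 at 0 h, at folds of 2.19 and 2.62. At 24 h it had 647 over 77 and 488 over 94, at folds of 2.46 and 1.70. In 48 h list 2 it had 507 over 71, at a fold of 1.84. The 24 h folds overlapped those of 0 h and enclosed that of 48 h, so no order of the times could be read from Spp1.

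With that depth even a low fold gave a small p: the −log10 p was 33.4 and 46.6 in the 0 h lists, 27.2 and 9.66 in the 24 h lists, and 10.2 in 48 h list 2. The background at the summit, as a multiple of the lowest background of the list, was 168 and 151 in the 0 h lists, 128 and 142 in the 24 h lists and 195 in 48 h list 2. No peak was listed in 48 h list 1, which is deeper than 48 h list 2 in background (57.2% against 44.5% of the deepest list) and in pull-down (78.0% against 68.5%). The value of Spp1 in that list is not given below its threshold.

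Vegfa (ENSMUSG00000023951), the growth factor of blood vessels, had the most regions, 5, on the minus strand of chromosome 17. It was in neither 0 h list. The region that returned, at 46328346 to 46328576 in the 3′ UTR, was found in 24 h list 1 and in both 48 h lists, with summits 542 to 577 bases before the 3′ end. It had 56 pull-down fragments over a background of 3.55 in 24 h list 1, and 89 over 7.07 and 99 over 6 at 48 h. The folds were 3.84, 3.36 and 3.81, so the 24 h value lay just above both 48 h values. The −log10 p was 6.64, 8.05 and 8.87, with a q of 0.05 or less in all 3 lists. At the matched depth all 3 peaks were kept. As a multiple of the lowest background of the list, the background was 5.90 in 24 h list 1 and 15.1 and 16.5 at 48 h.

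The other 4 regions of Vegfa came from 48 h list 1 and no other list. Of these, 2 lay further upstream in the 3′ UTR, at 46328711 to 46328919 and at 46329295 to 46329509, with folds of 2.92 and 2.47; the second had a q of 1. The third, at 46336272 to 46336480, was centred in exon 3 and had the highest fold of the gene, 4.02, from 24 pull-down fragments over a background of 1 (scaled ratio 7.04, exact 95% interval 1.15 to 289). The fourth, at 46342854 to 46343144, lay in the 5′ UTR with its summit 266 bases from the 5′ end, and with 116 fragments over 11 it had a fold of 2.92 and a −log10 p of 8.19, the strongest Vegfa peak of that list. So the 48 h lists shared the gene and 1 of its 5 regions.

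Taken over the 7 genes, peaks stood high in their lists for p and low for fold. The median percentile of −log10 p was 83.4, with a range of 9.50 to 99.3. The median fold was 2.53, against 3.05 over all 4753 peaks, and the median summit held 188 pull-down fragments, against 46. Among the 36 peaks 27 had a q of 0.05 or less, or 75%, beside 43.8% of all peaks. The genes were picked from these peaks, so the medians describe the set and are no comparison. A threshold on p and one on fold keep different members: a q of 1e-05 or less kept Sirpa in 5 lists, Spp1 in 3, Hmox1 in the 2 lists of 0 h and Cd36 in 2, whereas a fold of 4 or more kept Sirpa, Stat6 and Vegfa in 1 list each.

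**Figure D4:**
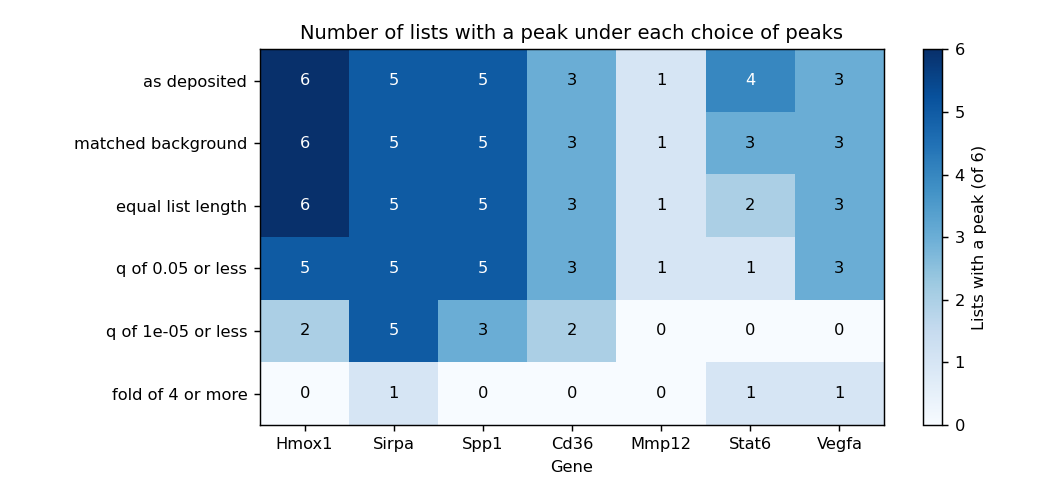
Each cell gives the number of the 6 lists with a peak for a gene (column) under a choice of peaks (row). Sirpa stays at 5 down to a q of 1e-05, Stat6 goes from 4 as deposited to 1 at a q of 0.05, and a fold of 4 or more leaves at most 1 list for any gene.

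Genes in the same lists as each member were ranked by how near their mean percentile of −log10 p was. For Hmox1, in all 6 lists like 58 other protein-coding genes, the nearest were Jund, a subunit of the AP-1 transcription factor, and Rbms1, at mean percentiles of 74.2 and 78.6 against 76.0. For Sirpa they were Ywhaz, a 14-3-3 protein, and Cebpb, a transcription factor of macrophages, among 18 genes; both had a lower mean percentile (94.6 and 94.0 against 97.6). For Spp1 they were Nus1 and the kinase gene Plk2, among 19, both lower (88.4 and 87.6 against 93.0). For Cd36 they were Ptp4a1 and Mrfap1, among 14, at 87.2 and 75.8 against 86.6, so Mrfap1 was not close. Stat6 shared its 4 lists with 6 genes, the nearest being Stx4a, at a mean percentile of 35.5 against 35.9. Vegfa shared its 3 lists with 12, the nearest being Igf2bp2, an RNA-binding protein gene, and Csf2ra, a chain of the GM-CSF receptor. Mmp12 shared its single list with 121 genes, the nearest being Snx3 and Wbp2.

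The members belong to a wider set of 107 genes of alternative activation, repair, lipid, haem and IL-10 biology. Of these 29 had a peak in any list, or 27.1%, beside 8.12% of all protein-coding genes of the RefSeq table; the 29 include the 7 members, picked for having a peak, and without them 22 of 100 had one. The transcript level of the genes was not used for either share, and the set was put together with earlier results known. In the IL-4 and IL-13 pathway Stat6 was the 1 gene of 18 with a peak. The receptor chains Il4ra and Il13ra1, the kinases Jak1 and Jak3 and the factors Klf4, Irf4 and Pparg had none. Among 14 classical markers of the alternative state the mannose receptor gene Mrc1 was the 1 gene with a peak, in 0 h list 1 and 48 h list 2, at folds of 3.07 and 5.22; Arg1, Retnla and Chil3 had none.

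In the group for scavenging and lipid handling 7 of 15 genes had a peak: Cd36, the lipid droplet gene Plin2 in 4 lists, the lipoprotein lipase gene Lpl and the fatty acid binding gene Fabp4 in 3 each, and Abcg1, Fabp5 and Ucp2 in 1 each. The Plin2 region of the 3′ UTR, at chromosome 4, 86574968 to 86575249, had folds of 2.86 to 3.94. In the haem, iron and oxidative stress group 4 of 15 had a peak. They were Hmox1, Bach1, the repressor of Hmox1 transcription, in 4 lists, and Nfe2l2 (NRF2, its activator) and Txnrd1 in 1 list each. The iron genes Fth1, Ftl1 and Slc40a1 had none.

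Matrix and repair genes had 11 of 24 with a peak. Beside Spp1, Mmp12 and Vegfa these were Gpnmb and the integrin gene Itgb1 in 5 lists, the thrombospondin gene Thbs1 in 4, Cd44 and Igf1 in both 0 h lists, and Mmp19, Pdgfa and Tgfbr1 in 1 list each. The Mmp19 peak overlaps 3 annotated genes, so its gene is uncertain. For the phagocytic brake and the clearance of dead cells 3 of 13 had a peak: Sirpa, its ligand gene Cd47 in 0 h list 2, at a fold of 2.29 and a q of 1, and Calr in 0 h list 1. The phosphatase genes Ptpn6 and Ptpn11, which act below SIRPα, had none. For IL-10 signalling 2 of 8 had a peak, Il10rb in both 0 h lists and Bcl3 in 24 h list 2. Over the whole set 12 genes had a peak in both 0 h lists, 6 in both 24 h lists and 5 in both 48 h lists. A gene is counted even where its 2 lists hold separate regions, as for Cd44 at 0 h. Over all 1779 coding genes these counts were 372, 192 and 183, so both counts were highest at 0 h and lowest at 48 h. The 0 h lists are also the longest and have the highest background depth, and the part this plays in the counts was not tested.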

How the data were processed

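Peak lists of the 6 pull-down samples were used; the total RNA samples were not analysed here. The build GRCm39, the aligner BWA (0.7.12) and the peak caller MACS2 (2.1.0) are named per the submitters' processing notes; settings are not stated. The authors deposited fold enrichment (a linear ratio over the caller's background) and −log10 of p and q for each summit, per the file headers. A peak was 1 deposited region, described by its strongest summit. Its gene was the one whose body holds its centre, as annotated by the authors. Starts and ends are as deposited and can be off by 1 base.

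Fragments were recovered by finding, per list, the factor at which fold equals scaled fragments plus 1 over background plus 1 and p is a Poisson upper tail, within 0.0005 of −log10 p; 99.7% to 100% of summits matched. The factor was 0.259 to 0.468. On simulated summits at least 99.6% of fragments were recovered. Those summits were made with the same formula and held fewer fragments than the largest summits reported here. The simulation thus tests neither recovery at such summits nor whether the caller used this formula. Intervals are exact, at 95%, and cover counting error only; the summit is the highest point, and reads without molecular identifiers are not independent molecules.

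Protein-coding genes came from a RefSeq table of build GRCm38.p6, used for names; 95.2% of symbols matched. Named genes were the 7 members, each gene of the wider set with a peak and, per member, the 2 genes of the same lists nearest in percentile, of which 1 is not reported here. Members, wider set and alternatives were chosen with earlier results of these data known. The alternatives were a q of 0.05 or 1e-05, a fold of 4, equal list length, matched background depth, gene by exon or by any overlap, a wider overlap between joined peaks, reversed order of annotations and leaving out each list. No test was made. Python 3.11.15, pandas 2.3.3, numpy 2.4.6 and scipy 1.17.1 were used.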

Additional observations from a re-analysis of the deposited data

How the results depend on the processing

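Counts per member and over the set were recomputed under each alternative. Matched background depth, assignment of genes by exon or by any overlap, a wider overlap between joined peaks and a reversed order of annotations left every count within 1.5 times of its deposited value, and so did equal list length except for Stat6 (2 lists in place of 4). At a q of 0.05 or less 1 member (Spp1) had a peak in both 24 h lists in place of 3. At a q of 1e-05 or less 0 members were in both 24 h lists, 1 was in both 48 h lists, 12 pairs of gene and list remained in place of 27, and 12 genes of the wider set had a peak in place of 29. At a fold of 4 or more 0 members were in both lists of any time, and 3 pairs and 0 recurrent regions remained. In the wider set 8 genes then had a peak. The whole lists, of 611 to 1151 peaks, held 224 to 599 at a q of 0.05 or less. They held 90 to 271 at a q of 1e-05 or less and 122 to 223 at a fold of 4 or more. A loss of peaks was thus not particular to these genes. Leaving out each list in turn gave 4 to 5 members at 0 h, 3 to 5 at 24 h, 4 to 5 at 48 h, 22 to 23 pairs, 7 recurrent regions each time and 24 to 29 genes of the wider set. Without 1 list of a time, members at that time are counted in the list that remains, so that count could not fall. Each recurrent region was in at least 3 lists, so their number could not fall either. These counts therefore say nothing on how stable the result is. Without 24 h list 2 Mmp12 had no peak. No paired analysis was possible because no test was made and the number of a list ties it to no sample. Matching depth can remove peaks and adds none, and a list gives no value below its threshold.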

Other observations

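Thbs1, the gene of the matrix protein thrombospondin-1, had 2 regions in its 3′ UTR. The stronger, at chromosome 2, 117957238 to 117957511, was in 0 h list 2, 24 h list 1 and both 48 h lists, at folds of 3.14 to 4.09 and a −log10 p of 10.2 to 35.7. Its summit held 59 pull-down fragments in 0 h list 2, 231 in 24 h list 1, and 413 and 335 at 48 h. These fragments are not on the same scale in different lists. The folds, in the same order, were 4.09, 3.84, 3.94 and 3.14, highest in 0 h list 2. The weaker, at 117956379 to 117956714, was in 24 h list 1 and 48 h list 1 alone, at folds of 1.68 to 2.35. Bach1 was also in 4 lists, but its 5 regions in the 3′ UTR were each found in 1 list, at folds of 2.82 to 3.95.

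Gpnmb, a transmembrane glycoprotein gene of macrophages, had 1 region in intron 4, at chromosome 6, 49023052 to 49023452, in every list but 48 h list 2. A second region in its last exon, at 49033172 to 49033427, was in both 0 h lists and no later list, at folds of 1.71 and 2.00 and a −log10 p of 37.0 and 55.6. The 0 h list 1 summit of that region held 1541 pull-down fragments. Plin2 had a similar pair, a 3′ UTR region in 4 lists and an exon 5 region, at 86580223 to 86580452 of chromosome 4, in both 0 h lists alone.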
